A study of Homo sapiens with 8 samples.

Results

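SERPINA1, TF and TTR encode 3 abundant proteins that the liver secretes into blood, and their H3K36me3 peaks were described in HepG2 cells with and without a SETD2 knockdown. HepG2 is a human hepatocellular carcinoma line that keeps many features of hepatocytes. The members are the peaks of the 2 deposited full peak tables that overlap one of 3 gene spans by at least 1 bp, which gave 5 peaks of 58863, with 2 of them in the knockdown list and 3 in the control list. In hg19, SERPINA1 lies on the minus strand of chromosome 14 from 94843084 to 94857029. TF lies on the plus strand of chromosome 3 from 133464977 to 133497850, and TTR on the plus strand of chromosome 18 from 29171730 to 29178987. The span of SERPINA1 is 13.9 kb long, that of TF 32.9 kb and that of TTR 7.26 kb.

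The SETD2 knockdown cells carried a stable short hairpin RNA (shRNA) directed at SETD2, and the control cells an shRNA without a specific target. Both kinds of cell had been infected with lentivirus in 4 µg/mL polybrene and kept under 1 µg/mL puromycin. Each condition had H3K36me3 immunoprecipitates and input DNA, with 2 replicates in each of the 4 groups. Replicates were pooled before peaks were called, so every value below comes from 1 pooled library per condition, has no replicate check, and carries no p-value. The intervals given cover counting error only. RNA and protein levels of SETD2 were not analysed here.

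H3K36me3, a trimethylation on the tail of histone H3, is placed on the bodies of genes while they are transcribed. In human cells it is deposited by SETD2, which travels with elongating RNA polymerase II, and it is usually low at the start of a gene and higher toward its end. SERPINA1 encodes alpha-1 antitrypsin, the main plasma inhibitor of neutrophil elastase. TF encodes transferrin, the carrier of iron in plasma. TTR encodes transthyretin, which carries thyroxine and, with retinol binding protein, vitamin A. Hepatocytes transcribe all these genes strongly, in part through the liver factors HNF4A and FOXA.

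Start regions of SERPINA1 and TF are shown so that the 5′ ends of their peaks can be read against them, with both SERPINA1 starts because the peaks leave one of them uncovered. The sequences are those of RefSeq on GRCh38.p14, from 250 bases before to 50 bases after a transcription start, read 5′ to 3′ on the strand of the gene. RefSeq gives SERPINA1 an upstream start, on chr14:94390586-94390885, and a downstream start, on chr14:94388553-94388852. The downstream start is the one that hepatocytes are known to use. The TF window is that of the downstream of its 2 RefSeq starts, on chr3:133746143-133746442. TTR had no window among the start sequences used, so no motif search was made for it. Capitals mark matches, on either strand, to TGTTTGC (FOXA) or GTCAAAG (HNF4), letters that were chosen with the sequences in view.
SERPINA1 upstream start: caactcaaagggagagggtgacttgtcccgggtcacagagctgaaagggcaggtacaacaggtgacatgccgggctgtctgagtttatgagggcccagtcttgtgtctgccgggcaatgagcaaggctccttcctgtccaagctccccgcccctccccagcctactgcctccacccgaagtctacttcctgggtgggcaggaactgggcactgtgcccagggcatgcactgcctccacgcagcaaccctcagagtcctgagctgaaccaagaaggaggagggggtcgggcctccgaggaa
SERPINA1 downstream start: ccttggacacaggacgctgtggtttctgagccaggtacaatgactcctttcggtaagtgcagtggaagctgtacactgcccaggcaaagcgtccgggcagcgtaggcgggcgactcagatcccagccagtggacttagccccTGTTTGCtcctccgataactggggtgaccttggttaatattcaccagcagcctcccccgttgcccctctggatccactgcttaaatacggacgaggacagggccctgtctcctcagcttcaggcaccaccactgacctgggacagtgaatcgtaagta
TF downstream start: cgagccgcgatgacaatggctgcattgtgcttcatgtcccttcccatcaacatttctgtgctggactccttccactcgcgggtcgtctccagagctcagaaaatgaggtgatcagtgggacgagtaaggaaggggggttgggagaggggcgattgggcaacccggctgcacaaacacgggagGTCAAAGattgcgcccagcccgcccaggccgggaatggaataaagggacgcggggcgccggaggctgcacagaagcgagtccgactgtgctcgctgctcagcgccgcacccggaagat

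The downstream SERPINA1 window holds the FOXA letters from position -108, counted from the start, and the upstream window holds neither motif. The TF window shown holds the HNF4 letters from position -68, and the window of the other TF start, not shown, holds neither motif. Of 35116 windows of the same length, 3.89% hold the FOXA letters and 2.64% the HNF4 letters. A match describes the letters and not a bound factor.

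In the control list each of the 3 genes carried a single peak that covered most of its body, and in the knockdown list SERPINA1 and TTR each carried 1 peak and TF none. Over all 35375 control peaks, 39.5% were overlapped by a knockdown peak, so 2 of 3 members with such a peak is too small a count to set apart from the list. Tag density is given throughout as tags per kb of peak per 1000000 filtered tags. On this scale the knockdown held 0.337 outside its peaks and the control 0.235, and the median peak had 0.907 in the knockdown and 1.10 in the control. The filtered immunoprecipitates held 67053273 tags in the knockdown and 47880817 in the control. The filtered inputs held 69095038 tags in the knockdown and 67158956 in the control.

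**Figure D1:**
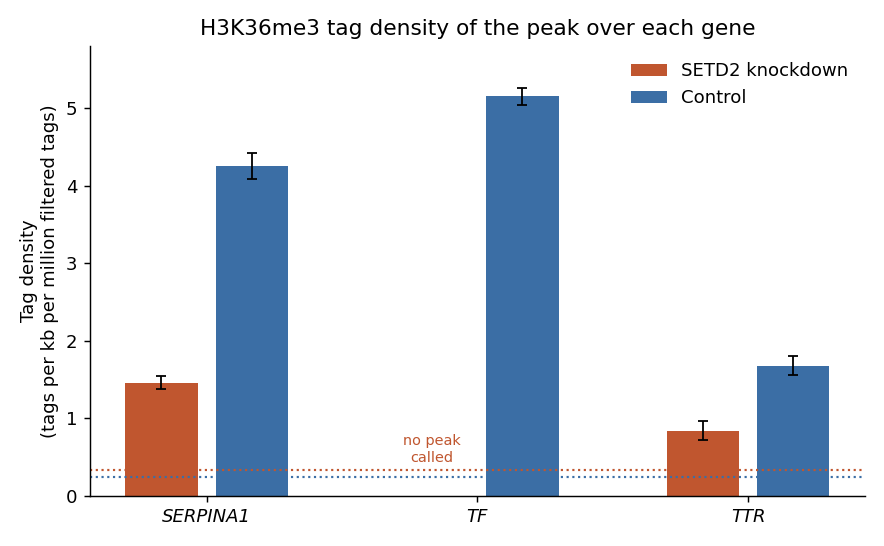
Tag density (tags per kb of peak per 1000000 filtered tags) of the peak over each gene in the SETD2 knockdown (left bar) and in the control (right bar), with Poisson 95% intervals and dotted lines at the density outside peaks (0.337 in the knockdown, 0.235 in the control). SERPINA1 stands at 1.46 in the knockdown and 4.25 in the control, TTR at 0.834 in the knockdown and 1.68 in the control, and no knockdown peak was called on TF, whose control density was 5.15.

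SERPINA1, the protease inhibitor gene, kept a peak in the knockdown at a lower density than in the control. The knockdown peak ran from 94844190 to 94855189 and held 1075 tags, a density of 1.46 (Poisson 95% interval 1.37 to 1.55). The control peak ran from 94843081 to 94855281 and held 2480 tags, a density of 4.25 (4.08 to 4.42). The ratio of knockdown over control was 0.343 (exact conditional binomial 95% interval 0.319 to 0.369), which is 2.91 times higher in the control (2.71 to 3.13). The knockdown density was still 4.33 times the density outside knockdown peaks, whereas the control density was 18.1 times that outside control peaks.

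The call over SERPINA1 kept most of its width. The knockdown peak was 11.0 kb wide and the control peak 12.2 kb, and the knockdown peak lay wholly within the control peak and covered 90.2% of it. Of the gene span, 78.9% was covered in the knockdown and 87.5% in the control. Both peaks began inside the gene, 1840 bp past the start of the span in the knockdown and 1748 bp past it in the control. RefSeq on GRCh38 places the downstream SERPINA1 start 2033 bp after the upstream one, and the span used here (13946 bp) is slightly longer than that of RefSeq (13889 bp). Both peaks therefore left the stretch next to the upstream start uncovered and began close to where that distance puts the downstream start. At the other end, the knockdown peak stopped 1106 bp before the end of the gene and the control peak 3 bp beyond it. The summit, the point of highest pileup, lay 10.2 kb from the start of the span in the knockdown (72.9% of the way along the gene) and 8.07 kb in the control (57.9%).

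Within each list SERPINA1 ranked high by density and less high by enrichment in the knockdown. The fold enrichment over local input is the value of the authors' caller and ranks peaks within a list only. It was 4.28 in the knockdown, above 68.5% of that list, and 14.55 in the control, above 95.8% of that list. The SERPINA1 density was above that of 94.4% of knockdown peaks and of 99.0% of control peaks. The deposited score, a log10 p-value times -10, was 236.12 in the knockdown and 3100 in the control. The false discovery rate (FDR) was 51.9% in the knockdown and 0% in the control. Of the 531 other control peaks within 1.25-fold of the SERPINA1 control peak in fold enrichment and width, 513 were overlapped by a knockdown peak. That is 96.6% (exact Clopper-Pearson 95% interval 94.7 to 98.0%), so a kept call was usual among such peaks.

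The SERPINA1 ratio was low beside other domains that were called in both conditions. Reciprocal overlap of 50% or more gave 7543 matched pairs, of which 50.1% had a knockdown density lower by 1.5-fold or more. In 21 pairs the ratio was lower than at SERPINA1. The median ratio over all pairs was 0.666 (quartiles 0.572 and 0.771). Among the 351 pairs whose control peak was within 1.25-fold of SERPINA1 in fold enrichment and in width, the median ratio was 0.543 (quartiles 0.486 and 0.600) and 2 pairs had a lower ratio. Among the 418 pairs within 1.25-fold of its control density, the median was 0.490 (0.437 and 0.562) and 10 pairs had a lower ratio, with the lowest at 0.237. Pairs of high control density had lower ratios than pairs at large, and the control density enters both quantities. Control peaks without a knockdown peak that matched them by this overlap have no ratio and are left out of these counts. The 351 pairs stand beside 531 other control peaks within the same limits of SERPINA1.

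**Figure D2:**
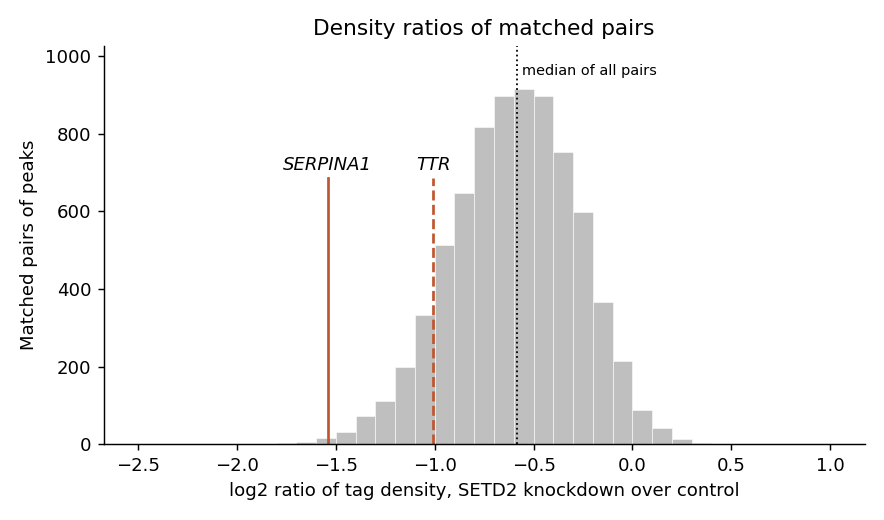
Histogram of the log2 ratio of tag density, SETD2 knockdown over control, for 7543 matched pairs of peaks, with the values of SERPINA1 (solid line) and TTR (dashed line). SERPINA1 at -1.54 and TTR at -1.01 both lie below the median of all pairs at -0.59 (dotted line); TTR is drawn for its value and is not itself a matched pair.

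TF, the transferrin gene, had the strongest domain of the 3 in the control and no peak in the knockdown. The control peak ran from 133465103 to 133499270, was 34.2 kb wide and held 8429 tags, a density of 5.15 (5.04 to 5.26). It began 126 bp after the start of the span, ended 1420 bp past its end and covered 99.6% of it, with its summit 20.3 kb from the start (61.7% of the way along). RefSeq on GRCh38 gives TF a longer span of 134644 bp with a second start 84395 bp further upstream. The added length is more than that distance, so by these lengths, from different builds, the RefSeq span also reaches further at its other end. Only the span of 32874 bp was used here.

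By each measure the TF domain stood near the top of the control list. Its fold enrichment of 24.18 ranked 116 of 35375 control peaks, its tag count 118, its density 154 and its width 579. Its density was 22.0 times that outside control peaks and 4.68 times that of the median control peak. Its FDR was 0%. Its score of 3100 was above 96.0% of the control list. Both SERPINA1 and a control peak downstream of SERPINA1 had the same score, at fold enrichments of 14.55 and 12.95. The score thus does not order these peaks.

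The TF domain is 1 of the 60.5% of control peaks that no knockdown peak overlapped, but control peaks as enriched as it mostly had one. Of the 116 control peaks that reach its fold enrichment of 24.18, TF included, 104 were overlapped by a knockdown peak, or 89.7% (exact Clopper-Pearson 95% interval 82.6 to 94.5%), and 12 were not. Sorted by tags the share was lower. Of the 118 control peaks with at least 8429 tags, 57 were overlapped, or 48.3% (39.0 to 57.7%). Of the 83 other control peaks within 1.25-fold of TF in fold enrichment and in width, 63 were overlapped, or 75.9% (65.3 to 84.6%), and 20 were not. Of the 17 that reached TF in fold enrichment, tags and width together, itself included, 9 were overlapped and 8 were not. Among control peaks with as many tags as TF, 61 of 118 thus had no knockdown call, against 60.5% of the whole list. Missing calls were less frequent among those like TF in fold enrichment and width, at 20 of 83.

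**Figure D3:**
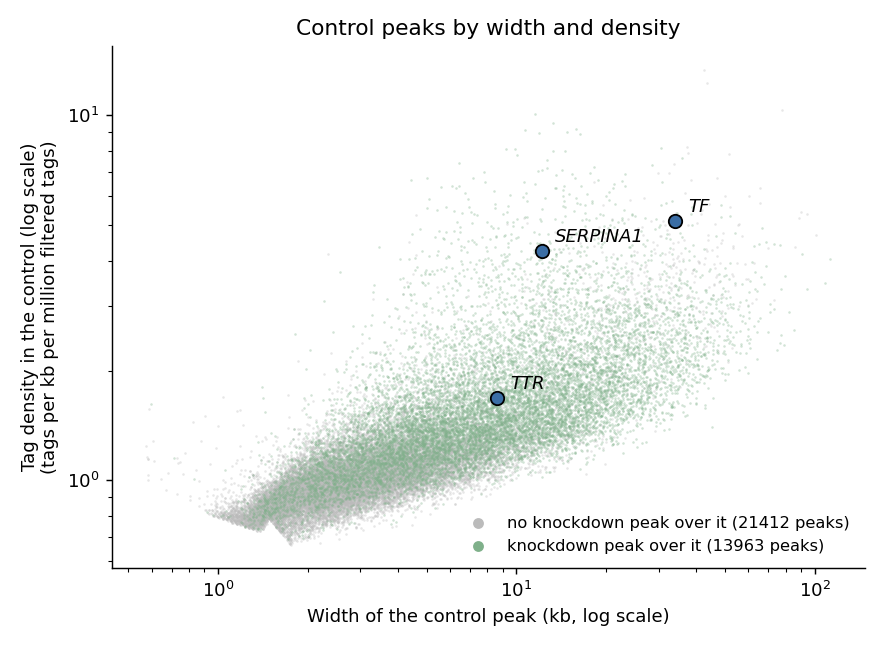
Each dot is 1 control peak by its width (kb, log scale) and its tag density in the control (log scale), green where a knockdown peak overlapped it (13963 peaks) and grey where none did (21412 peaks). TF at 34.2 kb and 5.15 and SERPINA1 at 12.2 kb and 4.25 lie at the upper edge of the cloud, and TTR at 8.64 kb and 1.68 lies inside it.

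The missing TF call does not give a level of the mark. Tags are listed inside called peaks only, so the knockdown density over TF cannot be read from these tables. For scale, the 17 knockdown peaks at least as wide as the TF control peak had densities from 1.42 to 3.22, with a median of 2.11. Among the 44 matched pairs like TF in fold enrichment and width the median ratio of knockdown over control was 0.485 (quartiles 0.433 and 0.546). These pairs hold only control peaks with a matching knockdown call, which TF lacks. They come from the 83 other control peaks like TF, of which 20 had no knockdown call, so their ratio is not an estimate for TF. In the knockdown list many tags did not always come with a high score: of 800 knockdown peaks with at least 1500 tags, 80 scored under 100, which is 10.0% (8.01 to 12.3%), against 125 of 3156 such control peaks, or 3.96% (3.31 to 4.70%). The part of such low scores in the missing TF call was not tested.

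The nearest peak downstream of TF was called in both conditions. In the knockdown it ran from 133525853 to 133543178, with 1642 tags and a density of 1.41 (1.35 to 1.48). In the control it ran from 133525561 to 133543682, with 1994 tags and a density of 2.30 (2.20 to 2.40). The ratio was 0.615 (0.576 to 0.657), and the knockdown peak covered 95.6% of the control peak. This knockdown peak had a fold enrichment of 5.72 but a score of 75.19 and an FDR of 84.9%, so it is 1 of the 80 peaks with many tags and a low score. The peak lay 28.0 kb from the TF span in the knockdown and 27.7 kb in the control.

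TTR, the shortest of the genes, had the weakest of the 3 control domains, though one in the upper part of the control list, and a peak close to the calling limit in the knockdown. The knockdown peak ran from 29172573 to 29175825 and held 182 tags, a density of 0.834 (0.718 to 0.965). The control peak ran from 29172162 to 29180803 and held 694 tags, a density of 1.68 (1.55 to 1.81). The ratio of knockdown over control was 0.497 (0.420 to 0.587), or 2.01 times higher in the control (1.70 to 2.38). This ratio compares a narrow knockdown call with a wider control call. With the tags of each peak divided by the gene span in both conditions, the ratio was 0.187 at TTR and 0.310 at SERPINA1. The same span cancels, so these are ratios of depth-scaled peak tags. They count no tags outside the called peaks, and the TTR control peak includes 1816 bp beyond the gene. The order of these 2 genes thus depends on whether peak width is divided out. The knockdown density was 2.48 times that outside its peaks, and the control density 7.15 times.

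Unlike at SERPINA1, the TTR call was much narrower in the knockdown. It was 3.25 kb wide, against 8.64 kb in the control, and covered 37.6% of the control peak, which keeps TTR out of the matched pairs. Of the gene span, 44.8% was covered in the knockdown and 94.0% in the control. The knockdown peak began 843 bp past the start of the gene and stopped 3162 bp before its end, so the last part of the gene had no call. The control peak began 432 bp past the start and ran 1816 bp beyond the end. The summit lay 2.81 kb from the start in the knockdown (38.7% of the way along) and 3.87 kb in the control (53.3%).

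**Figure D4:**
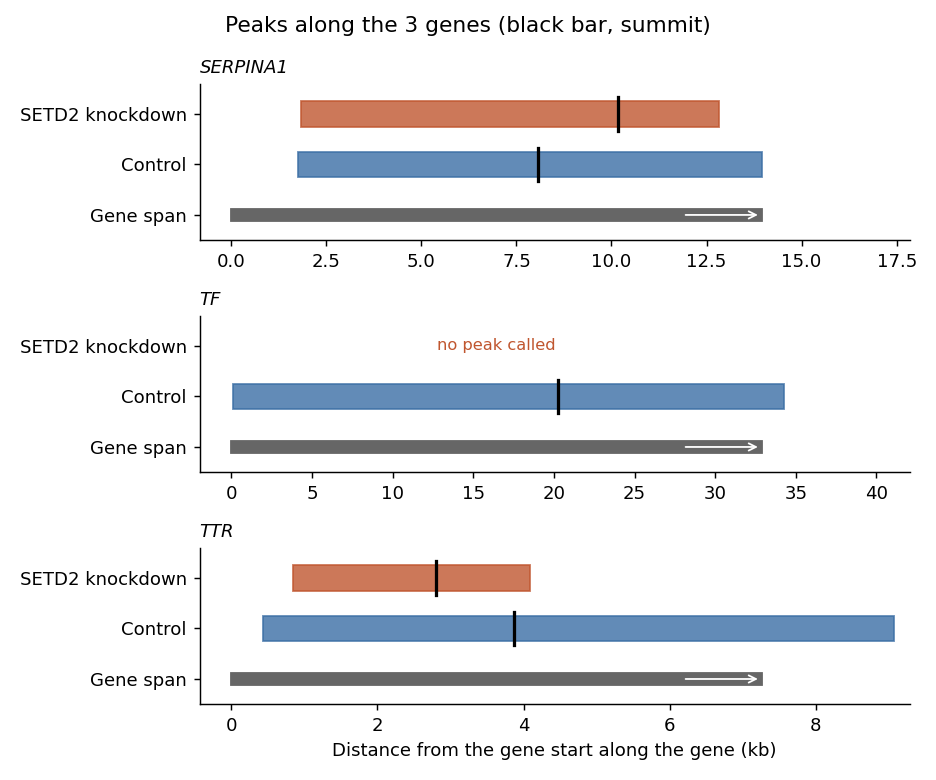
Peaks of the SETD2 knockdown (upper bar) and of the control (lower bar) along SERPINA1, TF and TTR, by distance from the gene start in kb, with the gene span in grey, its direction as a white arrow and the summit of each peak as a black line. The SERPINA1 peak is 11.0 kb wide in the knockdown and 12.2 kb in the control, the TTR peak 3.25 kb in the knockdown and 8.64 kb in the control, and TF has a control peak of 34.2 kb alone.

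The TTR peak of the knockdown ranked near the bottom of its list. Its score of 52.75 was above 2.53% of knockdown peaks, the lowest score in the list being 50, and its FDR was 92.1%. Its fold enrichment of 2.22 was above 0.315% of the knockdown list, while that of the control peak, 6.67, was above 72.5% of the control list. The control peak was above 84.1% of its list by density, 80.9% by tags and 90.9% by score. The control peak had a score of 1627.67 and an FDR of 0%. Of 1705 other control peaks within 1.25-fold of the TTR control peak in fold enrichment and width, 1233 were overlapped by a knockdown peak, or 72.3% (70.1 to 74.4%).

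The member peaks differed in how firmly they were called. All 3 control peaks had an FDR of 5% or less and were in the shorter deposited list, as were 17856 of all 35375 control peaks. Neither knockdown peak was, but only 1244 of all 23488 knockdown peaks were, none of them on these genes. The median FDR was 68.9% over the knockdown list and 4.86% over the control list, so this difference is one of the lists at large. The order of control density was TF, SERPINA1 and TTR, with intervals that do not overlap. In the knockdown SERPINA1 stood above TTR, again with intervals that do not overlap. Density is not divided by input, so differences in DNA copy number between the genes are not taken out of it. Fold enrichment over local input had the same order in the control, at 24.18, 14.55 and 6.67.

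The members lie on chromosomes that differed in how many control peaks had a knockdown peak over them. The share was 29.6% of 1087 control peaks on chromosome 14 (26.9 to 32.4%), where SERPINA1 lies, and 28.8% of 820 on chromosome 18 (25.7 to 32.0%), where TTR lies. On chromosome 3, where TF lies, it was 42.0% of 2505 (40.1 to 44.0%). TF, without a knockdown peak, thus lies on the chromosome with the highest share of the 3.

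Flanking peaks around SERPINA1 covered less length in the knockdown, as did the knockdown list at large, with 111 Mb against 229 Mb in the control list. Along the chromosome, RefSeq on GRCh38 lists SERPINA6 (the cortisol binding globulin gene) and the pseudogene SERPINA2 on one side and SERPINA11 and SERPINA9 on the other. Neighbours are given by order only, since their hg19 spans were not used, and no flanking peak was assigned to them. SERPINA2 is a close relative of SERPINA1, and the placing of reads that match both is not stated in the headers or labels. Within 100 kb of the gene, and apart from the SERPINA1 peak, 4 knockdown peaks covered 14.6 kb and 5 control peaks covered 43.8 kb. The FDR of these knockdown peaks ran from 64.4 to 89.9%. With an FDR of 5% or less, or a fold enrichment of 5 or more, no knockdown peak was left in this window, SERPINA1 included. Over the whole lists, 4135 of 23488 knockdown peaks and 16656 of 35375 control peaks had a fold enrichment of 5 or more. The densest flanking control peak, downstream of the gene from 94768359 to 94783721, had 2.59 (2.48 to 2.71), and the 2 knockdown peaks over it had 0.982 together (0.910 to 1.06), a ratio of 0.379 (0.347 to 0.414) from pieces that covered 68.1% of the control peak. At the other 2 flanking control peaks with a knockdown peak the ratios were 0.638 (0.503 to 0.802) and 0.680 (0.534 to 0.864). A control peak upstream from 94908033 to 94917627, with a density of 1.64 and a fold enrichment of 11.45, had no knockdown peak, and neither had one downstream from 94747887 to 94757721, with a density of 1.53. SERPINA1 was denser than each flanking peak in its own list.

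Upstream of TTR a wide control domain was called in pieces in the knockdown. RefSeq lists DSG2 (a desmosomal cadherin gene) on that side of TTR and B4GALT6 on the other. The control domain ran from 29097015 to 29127455 with a density of 2.28 (2.20 to 2.36). Over it lay 4 knockdown peaks that covered 66.1% of it, with a density of 1.01 together (0.956 to 1.06), so the ratio was 0.443 (0.415 to 0.472). The FDR of these 4 peaks ran from 10.9 to 70.2%. Within 100 kb of TTR, peaks covered 23.4 kb in the knockdown and 40.9 kb in the control, the TTR peaks included. At the 5% FDR limit this length was 0 kb in the knockdown and 39.1 kb in the control, and with a fold enrichment of 5 or more it was 6.37 kb in the knockdown and 39.1 kb in the control. Within 100 kb downstream of TTR neither list had a peak.

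**Figure D5:**
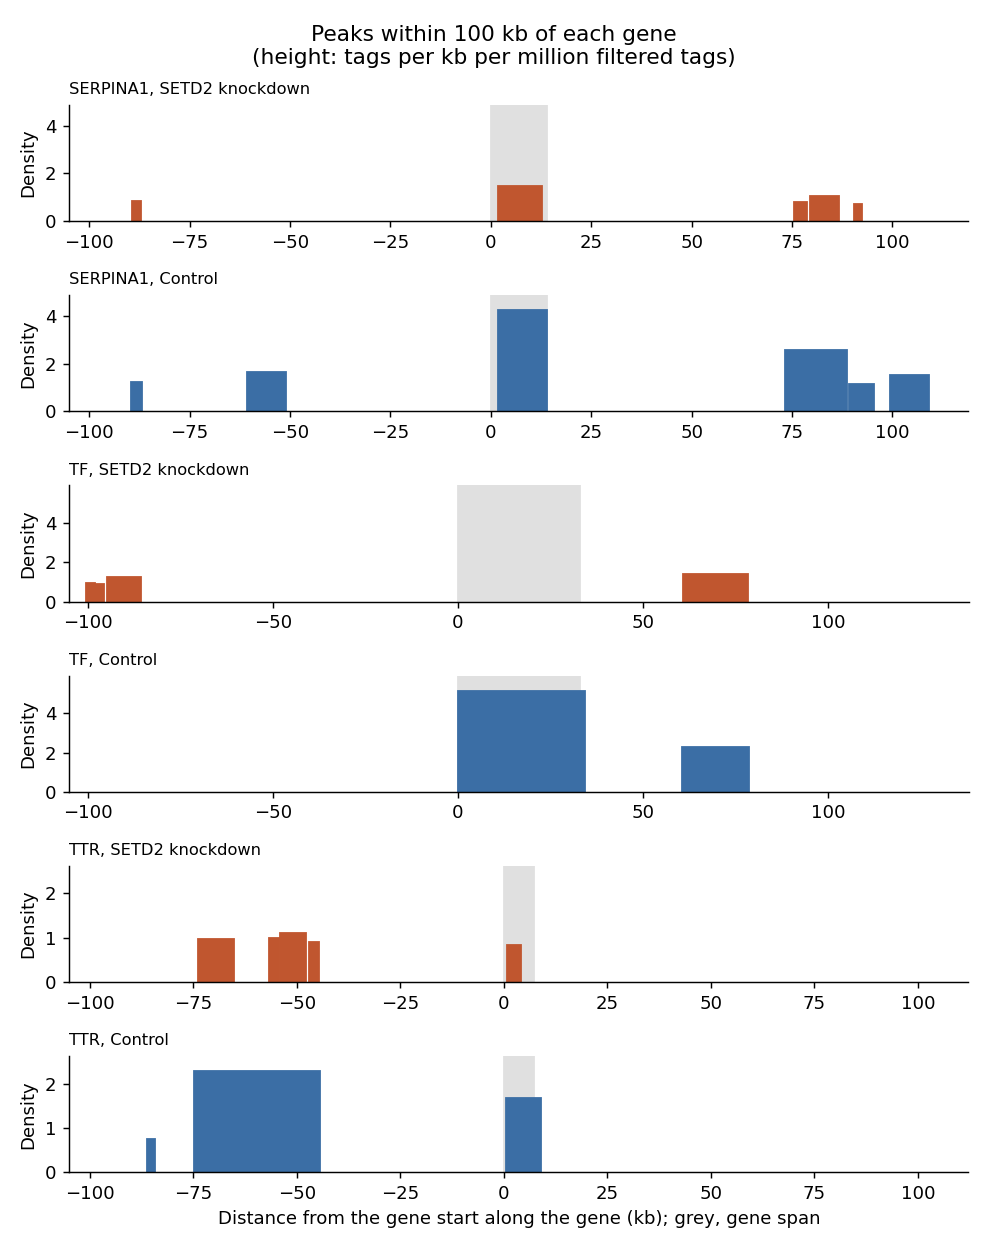
Peaks within 100 kb of SERPINA1, TF and TTR by distance from the gene start in kb, with the SETD2 knockdown above the control for each gene, bar height as tag density (tags per kb per 1000000 filtered tags) and the gene span in grey. The TF span is empty in the knockdown, while the downstream peak is present in both conditions (1.41 in the knockdown and 2.30 in the control) and 3 peaks upstream appear in the knockdown panel alone.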

How the data were processed

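H3K36me3 ChIP-seq of HepG2 cells was analysed from the 4 deposited peak lists. Bowtie 1.1.2, FastQC 0.11.5 and hg19 are named in the submitters' processing notes. Peaks were called with MACS 1.4.2 on pooled replicates against pooled input at a p-value limit of 1e-05, with 1 duplicate tag per position, per the file headers. The deposited tag counts are whole counts per peak, not normalized. The deposited score is a log10 p-value multiplied by -10. The deposited fold enrichment is a ratio over local input, and the deposited FDR is a percent. The shorter lists equal the peaks with an FDR of 5% or less.

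Tag density was scaled to 1 kb of peak and 1000000 filtered tags. Densities carry Poisson intervals and ratios exact conditional binomial intervals, all at 95%. Spans came with the rule for the members. Members and lists were chosen with earlier results of these data known. The text names the members, their nearest peaks and RefSeq neighbours (up to 3 a side). The classes of like peaks and the motifs were set after the data were seen. Other liver genes were not analysed here, since their hg19 spans were not given. Steps were tested on simulated data. Python 3.11.15, pandas 2.3.3, NumPy 2.4.6, SciPy 1.17.1 and matplotlib 3.10.9 were used.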

Additional observations from a re-analysis of the deposited data

How the results depend on the processing

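All 3 genes kept a control peak under each setting tried. The number with a knockdown peak, 2 in the full list, was 0 with an FDR of 5% or less, with the shorter lists and with a fold enrichment of 5 or more. It was 1 with a score of 100 or more, and 1 where the peak had to cover 50% of the gene, a setting added after the data were seen. The SERPINA1 ratio of 0.343 became 0.310 with the tags of each peak over the gene span. It became 0.279 with the density outside peaks taken off and 0.228 with tags outside peaks as depth. For TTR, 0.497 became 0.187, 0.345 and 0.331 under these settings. With all tags as depth both stayed within their intervals. The share of control peaks overlapped was 6.35% under the FDR limit and in the shorter lists, 36.9% under the score limit, 19.8% under the fold limit and 27.8% with 50% of the peak overlapped. The share of matched pairs lower by 1.5-fold or more was 77.8% under the FDR limit and in the shorter lists, 56.6% under the score limit, 71.7% under the fold limit, 52.4% at 80% reciprocal overlap and 48.2% with all tags as depth. Within 100 kb of TF the covered length was 31.1 kb in the knockdown and 52.3 kb in the control, the TF control peak included. Apart from that peak, the flanking peaks covered 31.1 kb in the knockdown and 18.1 kb in the control. The knockdown length became 9.39 kb under the FDR limit, 13.7 kb under the score limit and 26.7 kb under the fold limit. The control length of 52.3 kb did not move. Limits on peaks remove members by construction. A change of depth multiplies the ratio of every gene and pair by the same factor. The ratio over the gene span differs from the main ratio only by the widths of the peaks. For other shifts the cause was not tested. No paired analysis was possible because replicates were pooled before calling, and no replicate could be left out in turn.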

Other observations

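Upstream of TF, 3 knockdown peaks lay between 133364600 and 133379472, 85.5 to 98.1 kb from the span, and none overlapped a control peak. Of all 23488 knockdown peaks, 3991 (17.0%) overlapped none. The largest, from 133370086 to 133379472, held 789 tags at a density of 1.25 (1.17 to 1.34), with a fold enrichment of 5.86, a score of 1140.98 and an FDR of 2.77%. The nearest control peak ended 37.4 kb before it. The other two had densities of 0.961 and 0.886 and FDR values of 69.6% and 76.3%. RefSeq on GRCh38 lists TOPBP1, a gene of the DNA damage checkpoint, before TF on this side, and gives TF a second start 84395 bp upstream of the one at the span. The largest of these peaks ended 85.5 kb upstream of the span start, measured in hg19, which is further than 84395 bp. By these distances the whole peak lay before the second start and outside the longer RefSeq span of TF. The distances come from different builds, and a link between the peak and that start was not tested.

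Over the whole lists the covered length was 111 Mb in the knockdown and 229 Mb in the control. Within 500 kb of TTR it was 57.9 kb in 19 knockdown peaks and 59.3 kb in 11 control peaks, while the peaks other than that on TTR held 3399 tags in the knockdown and 7378 in the control, from libraries of unequal depth. Around SERPINA1 the same window held 54.1 kb in 9 knockdown peaks and 147 kb in 21 control peaks, and around TF 104 kb in 16 knockdown peaks and 110 kb in 11 control peaks. These 500 kb lengths include the peaks on the genes. Apart from those, peaks around SERPINA1 covered 43.1 kb in the knockdown and 135 kb in the control. Around TF they covered 104 kb in the knockdown and 76.2 kb in the control. Around TTR they covered 54.7 kb in the knockdown and 50.7 kb in the control.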
